A study of Mus musculus with 16 samples.

Results

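Endothelial cells line every blood vessel of skeletal muscle, and 35 genes that mark them were followed through a gradual reduction of the oxygen level in the soleus of mice, a calf muscle with many slow fibres. The members were a given list of 35 symbols. Each had a probe named through a RefSeq transcript, and all 35 passed the filter on dim probes, out of 14088 named genes and 22126 features that did. The brightest kept probe stood for its gene. The samples were soleus muscles of male mice, and the labels name no strain, age, genotype or transgene. Day 0 was sampled before the oxygen level was lowered, and days 3, 7 and 14 after its lowering had begun. The level came down to 10% within the first week and was then held. Total RNA from 14 samples was hybridised to 16 Agilent 1-colour arrays. Days 0 and 14 have 4 RNA samples each, and days 3 and 7 have 3 each. Nothing in the labels says that different RNA samples are different mice, so p-values measure the spread between these samples, which may be technical.

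Endothelial cells hold a vessel closed through adhesion proteins at their junctions. They respond to vascular endothelial growth factors, angiopoietins and members of the transforming growth factor family through surface receptors. ETS and SOX transcription factors maintain their identity, and muscle capillaries carry specialised proteins that move water, lipids and other solutes between blood and fibre.

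A value is the log2 intensity of a gene's probe minus the 75th percentile of its array on the same scale, so that 0 is the level of that percentile and a difference of 1 is a doubling. Probes differ in brightness for the same amount of RNA, so values compare samples for 1 gene and not genes with each other. A gene was called where the limma adjusted p (Benjamini-Hochberg, over all 22126 features) was under 0.05. Differences from the model are given ± the standard error (SE). Of the 35 endothelial genes, 33 were well above background on all 16 arrays. Clec14a, a C-type lectin of the endothelial surface, was so on 14 arrays. Calcrl, the calcitonin receptor-like receptor, was so on 4 arrays and on none of slide 2, and no fold is given for it. The tissue label was borne out by all 13 muscle fibre markers tested, among them the slow myosin heavy chain Myh7, which were well above background on all 16 arrays.

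The arrays lie on 2 slides. Slide 1 holds day 3 and day 7 (RNA samples 1, 2 and 4 of each) with day 0 RNA samples 1 and 2. Slide 2 holds all 4 RNA samples of day 0 and all 4 of day 14, so day 0 RNA samples 1 and 2 were measured on both slides. Slide 1 was the brighter, with 75th percentiles of intensity from 203 to 271, while those of slide 2 ran from 49.1 to 77.0. There the day 0 arrays form the upper row and the day 14 arrays the lower row, so row and day cannot be told apart. The day 14 arrays were also dimmer, with 37.9 to 38.9% of spots well above background against 39.4 to 42.9% on the day 0 arrays of that slide. Their part in the day 14 differences was not tested.

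At day 14 the endothelial genes had a median difference from day 0 of 0.31 against 0.06 over all features (0.11 against 0.03 when normexp on the median spot brightness replaced the scanner's processed signal). The difference was above 0 for 23 of 35 (65.7%), beside 58.5% of all features. Ramp2 and Mmrn2 rose, and no member was called lower: 2 of 35 were called, 2 of them higher and 0 lower, beside 0.402% of all features (0.294% higher and 0.108% lower). At day 7 the list was split. Of the 35 genes, 13 were called, 8 higher and 5 lower, beside 23.8% of all features (15.6% higher and 8.14% lower), and the median was 0.22 against 0.09. That gap was near 0 after quantile normalization (0.08 against 0.07) and in the deposited series table (0.05 against 0.05). At day 3, 3 of 35 were called, 1 higher and 2 lower, beside 6.09% of all features (2.27% higher and 3.82% lower), and the median was 0.05 against 0.06. A test of any change over the days (limma moderated F) called 14 of 35 genes (40.0%), beside 17.1% of all features. A feature needed only 3 arrays above background, while 33 of the 35 genes were so on all 16. In a fit of probes above background on all arrays, 2 members were called higher and 5 lower at day 3, beside 17.7% of all features. At day 7 the counts there were 9 and 6, beside 40.7%, and at day 14 they were 6 and 0, beside 2.82%. In whole muscle, a change in the number of endothelial cells and a change in RNA per cell cannot be told apart.

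These calls rest on few samples. Within slide 2 alone no member was called at day 14 (limma; 18 members had an unadjusted p under 0.05 upward and 4 downward), and 1 of all features was (0.00452%). Without day 0 RNA sample 1 or 2 the day 14 count was also 0, beside 0.0136% and 0.0633% of all features. It was 1 without day 0 RNA sample 3 or 4, without day 14 RNA sample 1, 2 or 4, and without RNA sample 1 of day 3 or of day 7. There the share of all features was 0.108% to 0.484%. Within slide 1 alone 5 members were called at day 7, Erg and Egfl7 higher beside 5.67% of all features and Tie1, Eng and Plvap lower beside 3.79%. At day 3 that count was 0 (limma), with an unadjusted p under 0.05 upward for 3 members, beside 10.5% of all features, and downward for 6, beside 10.1%. With all arrays, the day 7 count dropped from 13 to 0 when RNA sample 2 of day 0 was left out, to 6 when RNA sample 1 of day 0 was, and to 7 when either RNA sample 1 or RNA sample 2 of day 7 was. The count over all features moved in step, from 5261 to 103, 2612, 3324 and 2620. Icam2, Robo4, Erg, Sox7, Nos3 and Ly6c1 were lost in each of these cases, and Pecam1 also without RNA sample 1 of day 0. Erg and Ly6c1 were lost without RNA sample 4 of day 7, Erg and Nos3 without RNA sample 3 of day 0, and Nos3 without RNA sample 1 of day 3 or RNA sample 2, 3 or 4 of day 14. The day 3 count dropped from 3 to 0 when either of those day 0 samples or RNA sample 2 of day 3 was left out, and to 1 when RNA sample 1 of day 3 was, with 0.393%, 0.0452%, 0.624% and 3.56% of all features called. The Plvap call at day 3 was lost without any one of the other RNA samples too, except RNA sample 4 of day 3, and the Cd34 call at day 3 was lost without that sample. The day 7 split of 8 higher and 5 lower also moved with the scaling: it was 4 and 5 after quantile normalization, 5 and 6 when the percentile was taken over probes detected on all arrays, 6 and 6 in the deposited series table and 8 and 4 with median scaling. In that order, 21.1%, 21.8%, 20.4% and 22.0% of all features were called.

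**Figure D1:**
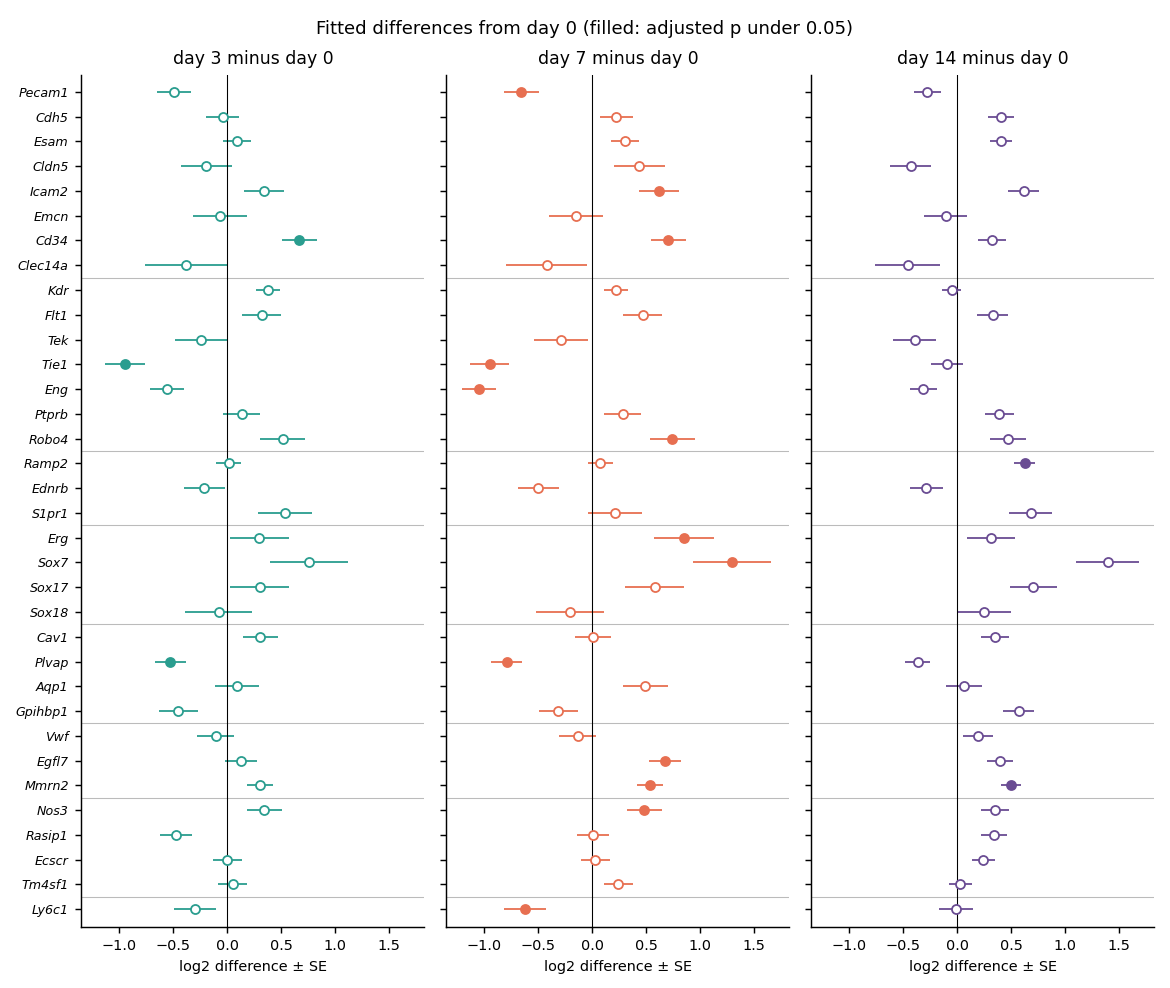
Fitted log2 differences from day 0 at day 3, day 7 and day 14 (horizontal axes, ± SE) for 34 endothelial genes ordered by role, with Calcrl left out because it was not above background. Filled points were called (adjusted p under 0.05): 3 at day 3, 13 at day 7 and 2 at day 14.

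Slide 2 gives the day 14 comparison without a step across slides. There, the 4 day 14 samples lay wholly above the 4 day 0 samples for 13 of 35 endothelial genes (37.1%), beside 10.0% of all features, and wholly below for 4 (11.4%), beside 4.10%. The 13 were Esam, Icam2, Cd34, Ptprb, Robo4, Ramp2, Sox7, Sox17, Gpihbp1, Egfl7, Mmrn2, Nos3 and Rasip1, and the 4 were Pecam1, Tek, Eng and Plvap. An unadjusted p under 0.05 upward was reached by 18 genes (51.4%), beside 14.0% of all features, and downward by 4 (11.4%), beside 7.06%. Adhesion genes and receptors stood on both sides, while all 4 transcription factors, all 3 secreted proteins and all 4 signalling genes had a difference above 0. Over the list, 23 of 35 differences were above 0 (65.7%), beside 58.5% of all features. No sample decided the sign of the median, which per day 14 RNA sample was 0.40, 0.24, 0.15 and 0.22 above the day 0 mean, against 0.05 to 0.09 over all features.

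**Figure D2:**
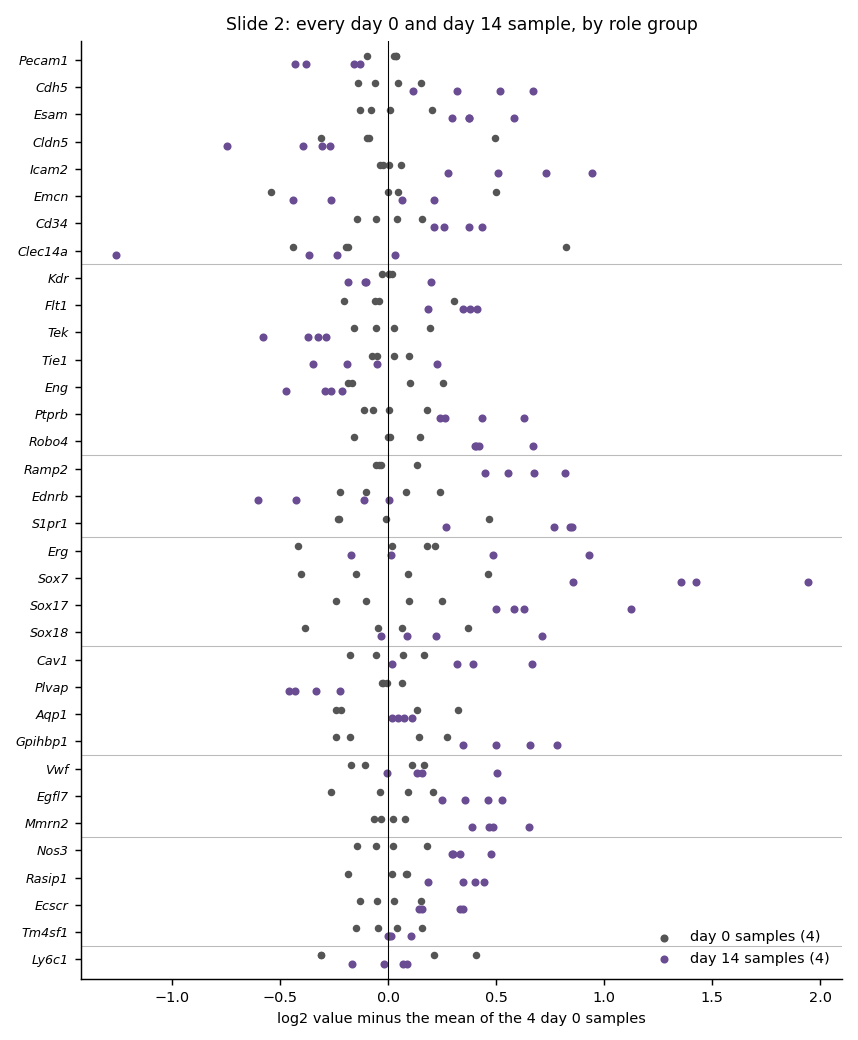
Every RNA sample of slide 2 for 34 endothelial genes, as log2 value minus the mean of the 4 day 0 samples (horizontal axis), with day 0 in grey and day 14 in purple and lines between role groups. The purple points stand clear to the right of the grey ones for 13 genes, among them Ramp2, Sox7 and Mmrn2, and clear to the left for Pecam1, Tek, Eng and Plvap.

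**Figure D3:**
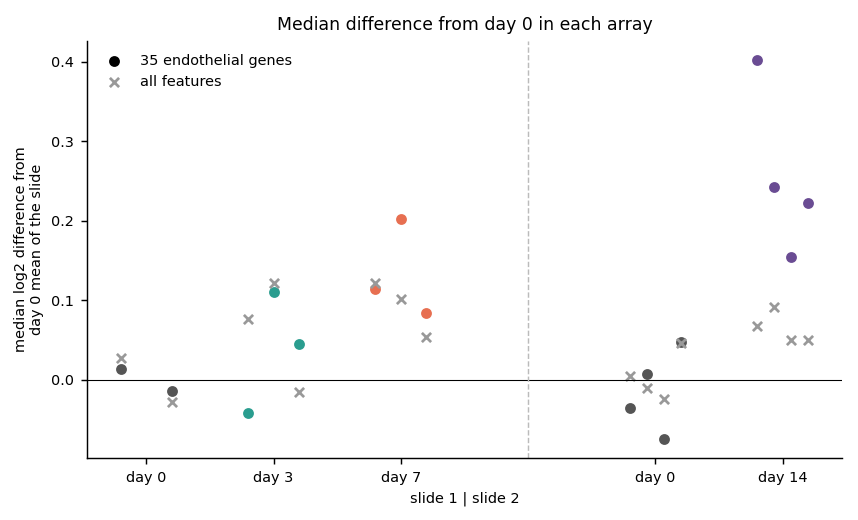
Median log2 difference from the day 0 mean of the same slide (vertical axis) in each array, for the 35 endothelial genes (filled circles) and all features (crosses). The 4 day 14 arrays stand at 0.15 to 0.40 for the endothelial genes and at 0.05 to 0.09 for all features, while on slide 1 the circles and crosses of days 3 and 7 intermix.

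On slide 1, the 3 day 7 samples lay wholly above both day 0 samples for 14 of 35 genes, beside 33.5% of all features, and wholly below for 8, beside 21.5%. At day 3 these counts were 10, beside 24.7%, and 7, beside 18.4%. The members' shares were near those of all features at both days. Days 3 and 7 were compared with day 0 through the 2 day 0 arrays of slide 1, and the same RNA gave other values on slide 2. The difference between slides (slide 2 minus slide 1) had the same sign in both RNA samples for 32 of 35 endothelial genes. Its median size was 0.19 in RNA sample 1 and 0.33 in RNA sample 2, against 0.28 and 0.36 over all features. Tie1 fell from slide 1 to slide 2 by 0.94 in RNA sample 1 and by 1.24 in RNA sample 2, and Kdr read higher on slide 2 by 0.74 and 0.77. Of the 13 genes called at day 7, 12 (92.3%) shifted between slides, in both RNA samples, the same way as they differed between day 7 and day 0. That share was 87.3% over all features called at day 7. Both quantities hold the day 0 arrays of slide 1, so a deviation of those arrays enters each. Without them, days 3 and 7 on slide 1 were set against day 0 on slide 2 with no slide term. The difference between slides then enters every such value, here and below. In this setting 8 members were called at day 7, beside 17.5% of all features, and 1 at day 3, beside 9.36%. Of the 13 day 7 genes, Eng, Egfl7 and Ly6c1 were called in this way too and also without a slide term. None of the 3 day 3 genes was called in all of these ways.

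**Figure D4:**
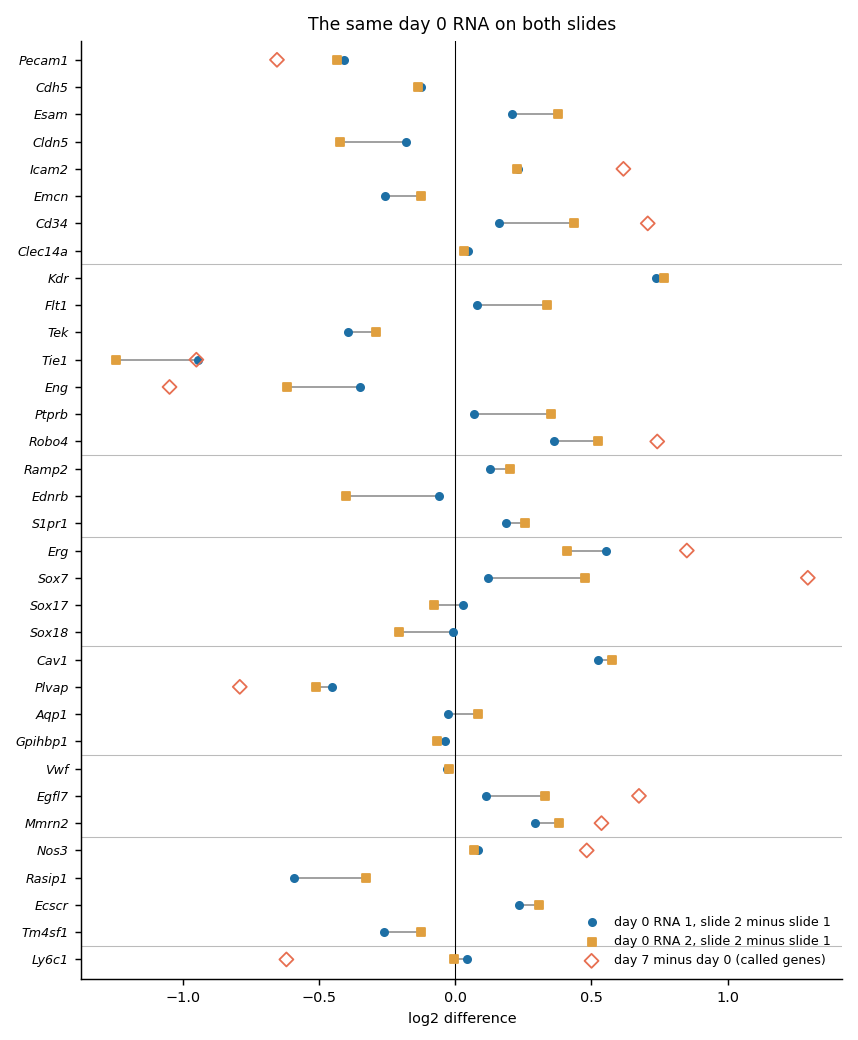
Difference between slides (slide 2 minus slide 1, log2, horizontal axis) of the same day 0 RNA for 34 endothelial genes, RNA sample 1 as circles and RNA sample 2 as squares, with the fitted day 7 minus day 0 difference of the 13 called genes as open diamonds. For 12 of these the circle and the square lie on the diamond's side of 0, and Ly6c1 is the exception.

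Adhesion and junction genes were the first group by role. Pecam1 and Cdh5 are its defining members: PECAM-1 joins endothelial cells at their borders, and VE-cadherin, the product of Cdh5, is the core of their adherens junctions. On slide 2, Pecam1 read 0.69, 0.67, 0.55 and 0.69 in day 0 RNA samples 1 to 4 and 0.27, 0.22, 0.49 and 0.52 in day 14 RNA samples 1 to 4. On slide 1 it read 1.09 and 1.11 at day 0 (RNA samples 1 and 2), 0.63, 0.80 and 0.35 at day 3 and 0.48, 0.13 and 0.69 at day 7 (RNA samples 1, 2 and 4, as for every gene that follows). All later samples lay below the day 0 samples of their slide. Pecam1 fell by 0.65 ± 0.16 at day 7 (limma, adjusted p = 0.0120), differed by -0.49 ± 0.16 at day 3 (adjusted p = 0.0822) and by -0.27 ± 0.13 at day 14 (adjusted p = 0.245), and without the slide 1 day 0 arrays the day 7 difference was -0.22 (adjusted p = 0.318). Cdh5 on slide 2 read 2.76, 2.97, 2.68 and 2.87 at day 0 and 3.49, 3.14, 2.93 and 3.34 at day 14. Only the day 14 RNA sample 3 fell within the day 0 range, and the difference was 0.40 ± 0.12 (adjusted p = 0.112). On slide 1 Cdh5 read 2.88 and 3.11 at day 0, 2.95, 2.81 and 3.04 at day 3 and 3.35, 3.14 and 3.10 at day 7, with the days overlapping. The genes of these neighbouring junction proteins thus stood on opposite sides of 0 at day 14.

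Icam2, an adhesion molecule that binds leukocytes and is made at rest by endothelial cells, rose at day 7 by 0.62 ± 0.18 (limma, adjusted p = 0.0281), a call lost in 9 of 27 alternatives. Without the slide 1 day 0 arrays the difference was 0.38 (adjusted p = 0.129). On slide 1 it read 3.20 and 3.18 at day 0, 3.45, 3.75 and 3.41 at day 3 and 3.77, 4.12 and 3.55 at day 7, so every later sample was above both day 0 samples. On slide 2 it read 3.43, 3.40, 3.39 and 3.49 at day 0 and 4.38, 3.94, 3.71 and 4.16 at day 14, again without overlap, with a difference of 0.62 ± 0.15 (adjusted p = 0.0739). Cd34, a sialomucin of capillary endothelium and of stem and stromal cells, read 4.46 and 4.28 at day 0, 4.95, 4.94 and 5.24 at day 3 and 5.03, 5.40 and 4.81 at day 7 on slide 1. It rose by 0.67 ± 0.16 at day 3 (limma, adjusted p = 0.0316) and by 0.71 ± 0.16 at day 7 (adjusted p = 0.00859), with no overlap of either day with day 0. Without the slide 1 day 0 arrays these were 0.37 (adjusted p = 0.130) and 0.40 (adjusted p = 0.0648). On slide 2 it read 4.62, 4.72, 4.83 and 4.53 at day 0 and 5.11, 5.05, 4.89 and 4.94 at day 14, without overlap and with a difference of 0.32 ± 0.13 (adjusted p = 0.189). A second Cd34 probe, above background on 15 arrays, did not follow: its differences within slides were 0.05 at day 3, -0.25 at day 7 and -0.02 at day 14, so the Cd34 calls belong to 1 probe. The other 4 members of the group had no call at any day. Their day 14 differences were 0.41 for Esam, a tight junction adhesion molecule, -0.43 for Cldn5, the main claudin of endothelial tight junctions, -0.11 for the sialomucin Emcn and -0.46 for Clec14a. Clec14a was well above background on only 2 of the 4 day 14 arrays, so its difference is taken near background.

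The receptors of endothelial growth factors and their partners were the second group, with 7 members. Kdr encodes the main signalling receptor of VEGF-A, VEGFR2, and Flt1 encodes VEGFR1, which binds VEGF-A tightly and signals weakly. Kdr on slide 2 read 4.25, 4.20, 4.23 and 4.24 at day 0 and 4.43, 4.13, 4.05 and 4.12 at day 14, and the day 14 samples lay on both sides of the narrow day 0 range. On slide 1 Kdr read 3.51 and 3.44 at day 0, 3.81, 3.96 and 3.80 at day 3 and 3.67, 3.68 and 3.74 at day 7. There every later sample was above day 0, with differences of 0.38 ± 0.11 at day 3 (limma, adjusted p = 0.0562) and 0.22 ± 0.11 at day 7 (adjusted p = 0.165), but against the day 0 arrays of slide 2 they were -0.37 (adjusted p = 0.0338) and -0.53 (adjusted p = 0.00401). A second Kdr probe, above background on all arrays, gave 0.17 at day 3, 0.63 at day 7 and 0.14 at day 14 within slides. The direction for Kdr in the first probe therefore depends on which day 0 arrays are used. The comparison with slide 2 also holds the difference between slides, and the same day 0 RNA read Kdr higher there by 0.74 and 0.77. Flt1 on slide 2 read 4.55, 4.53, 4.39 and 4.90 at day 0 and 4.97, 5.01, 4.94 and 4.78 at day 14. On slide 1 Flt1 read 4.47 and 4.20 at day 0, 4.78, 4.82 and 4.43 at day 3 and 4.86, 5.09 and 4.53 at day 7. The day 7 samples lay above day 0, the day 14 samples overlapped with it, and neither difference passed: 0.47 ± 0.18 at day 7 (adjusted p = 0.0778) and 0.33 ± 0.15 at day 14 (adjusted p = 0.224).

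Tek and Tie1 encode the angiopoietin receptor TIE2 and its partner receptor. Tek on slide 2 read -0.59, -0.34, -0.69 and -0.50 at day 0 and -1.11, -0.90, -0.82 and -0.86 at day 14, with every day 14 sample below every day 0 sample and a difference of -0.39 ± 0.20 (limma, adjusted p = 0.285). On slide 1 Tek read -0.20 and -0.05 at day 0, -0.36, -0.01 and -0.79 at day 3 and -0.25, -1.03 and -0.04 at day 7, and the days overlapped. Tie1 on slide 1 read 2.37 and 2.61 at day 0, 1.65, 1.23 and 1.66 at day 3 and 1.60, 1.23 and 1.71 at day 7, so day 0 stood apart from both later days. It fell by 0.95 ± 0.18 at day 3 (adjusted p = 0.0193) and by 0.95 ± 0.18 at day 7 (adjusted p = 0.00472). On slide 2, however, the day 0 samples read 1.43, 1.36, 1.26 and 1.28, as low as days 3 and 7 on slide 1, and the day 14 samples read 1.28, 1.14, 0.98 and 1.56. Without the slide 1 day 0 arrays the Tie1 difference turned to 0.18 at day 3 (adjusted p = 0.546) and 0.18 at day 7 (adjusted p = 0.462). The fall in Tie1 thus rests on the 2 day 0 arrays of slide 1, and the comparison without them holds the difference between slides. Ptprb, the phosphatase that holds TIE2 and VE-cadherin signalling down, had a day 14 difference of 0.39 ± 0.14 (adjusted p = 0.145), without overlap on slide 2. Its second probe gave 0.62, the same direction.

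Eng encodes endoglin, a co-receptor of the TGF-beta family that acts with ALK1. It read 2.95 and 3.37 at day 0, 2.71, 2.46 and 2.39 at day 3 and 1.94, 2.02 and 2.13 at day 7 on slide 1, with all day 7 samples below all day 3 samples and these below day 0. Eng fell by 1.05 ± 0.16 at day 7, to 0.484-fold of day 0 (limma, adjusted p = 0.00213), and differed by -0.56 ± 0.16 at day 3 (adjusted p = 0.0522). The day 7 fall was smaller against the day 0 arrays of slide 2 and was called there too (-0.47, adjusted p = 0.0267), and without day 0 RNA sample 2 it was -0.83 with an adjusted p of 0.0588. On slide 2 Eng read 2.60, 2.75, 2.31 and 2.33 at day 0 and 2.21, 2.02, 2.28 and 2.23 at day 14, without overlap and with a difference of -0.31 ± 0.13 (adjusted p = 0.192). Robo4, an endothelial receptor that stabilises vessels, went the other way. It read 3.14 and 3.14 at day 0, 3.75, 4.03 and 3.27 at day 3 and 3.91, 4.27 and 3.56 at day 7 on slide 1, and 3.50, 3.66, 3.66 and 3.80 at day 0 and 4.33, 4.08, 4.06 and 4.06 at day 14 on slide 2. In each slide all later samples were above all day 0 samples. Robo4 rose by 0.74 ± 0.21 at day 7 (limma, adjusted p = 0.0219), but the difference was 0.26 without the slide 1 day 0 arrays (adjusted p = 0.362), and its day 14 difference was 0.48 ± 0.17 (adjusted p = 0.146).

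**Figure D5:**
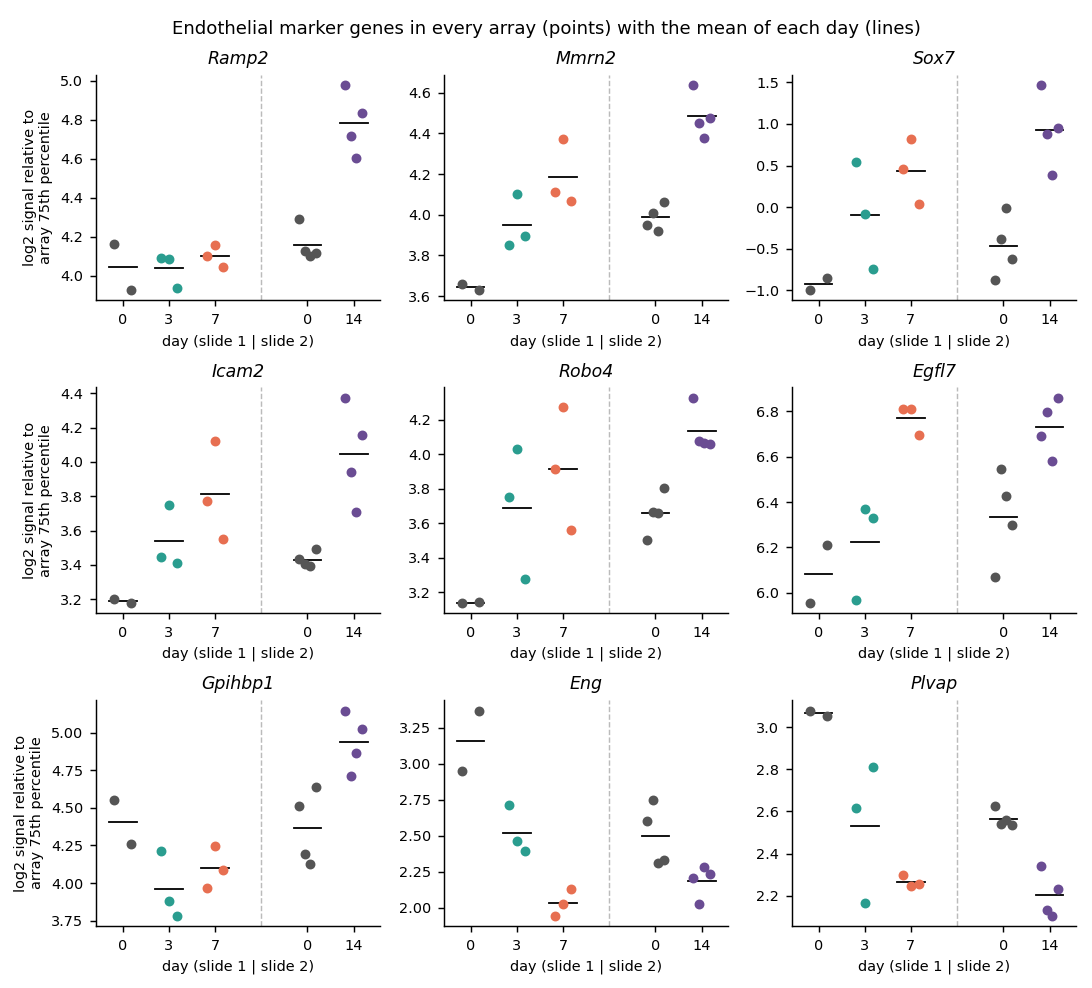
Log2 values relative to the array's 75th percentile (vertical axes, 1 scale per gene) in every array for 9 endothelial genes, with points for RNA samples and lines for the mean of each day, slide 1 left and slide 2 right of the dashed line. Ramp2 and Gpihbp1 stand high at day 14 alone, Mmrn2, Icam2 and Robo4 are above day 0 on both slides, and Eng and Plvap are below day 0 on both slides.

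G protein-coupled receptors and their partner protein include Ramp2, the member with the smallest p at day 14. Ramp2 encodes the receptor activity-modifying protein that turns the calcitonin receptor-like receptor into a receptor for the vasodilator adrenomedullin. On slide 2 it read 4.29, 4.13, 4.10 and 4.12 at day 0 and 4.98, 4.72, 4.61 and 4.84 at day 14, so that the lowest day 14 sample stood above the highest day 0 sample. On slide 1 it read 4.16 and 3.93 at day 0, 4.09, 4.08 and 3.94 at day 3 and 4.10, 4.16 and 4.04 at day 7, all within a narrow band. Ramp2 rose by 0.63 ± 0.09 at day 14, 1.54-fold (limma, adjusted p = 0.0158). The differences at days 3 and 7 were 0.01 ± 0.12 (adjusted p = 0.953) and 0.08 ± 0.12 (adjusted p = 0.675). The day 14 minus day 7 difference, which crosses slides, was 0.55 ± 0.14 (adjusted p = 0.0533). The Ramp2 call was kept in 21 of 28 alternatives, with the same direction in all 28. It was lost within slide 2 alone (adjusted p = 0.0979), when day 0 RNA sample 1 was left out (0.0575) and when RNA sample 2 of that day was (0.0712). The other settings that lost it were normexp on the median spot brightness, which changes the signal measure and the background correction together (0.0680), median scaling (0.109), no filter on dim probes (0.0653) and slide 2 with day 0 RNA samples 3 and 4 only (0.409). The receptor subunit Calcrl was near or below background at every day. S1pr1, the receptor for sphingosine 1-phosphate that keeps junctions closed, had a difference of 0.68 ± 0.20 at day 14 (adjusted p = 0.108), with overlap through 1 day 14 sample. Ednrb, the endothelin B receptor, had a day 7 difference of -0.50 ± 0.19 (adjusted p = 0.0732) and a day 14 difference of -0.29 ± 0.15 (adjusted p = 0.305), and its 2 probes shared the sign.

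Transcription factors made up the fourth group, and at day 14 all 4 had a difference above 0, beside 58.5% of all features. Sox7, Sox17 and Sox18 form the SOXF family, which acts in vessel identity, and Erg is the ETS factor most restricted to endothelium. Sox7 on slide 2 read -0.87, -0.38, -0.01 and -0.62 at day 0 and 1.47, 0.88, 0.38 and 0.95 at day 14, without overlap and with the largest day 14 difference of the list, 1.39 ± 0.29, or 2.63-fold, which missed the threshold (limma, adjusted p = 0.0535). On slide 1 Sox7 read -1.00 and -0.85 at day 0, 0.55, -0.09 and -0.75 at day 3 and 0.46, 0.81 and 0.04 at day 7, and every later sample was above both day 0 samples. Sox7 rose by 1.29 ± 0.36 at day 7 (adjusted p = 0.0212), while its day 3 difference was 0.76 ± 0.36 (adjusted p = 0.208). Against the day 0 arrays of slide 2 the day 7 difference was 0.91 (adjusted p = 0.0716). Erg read -1.41 and -1.30 at day 0, -1.45, -1.06 and -0.92 at day 3 and -0.73, -0.42 and -0.63 at day 7 on slide 1. It rose by 0.85 ± 0.27 at day 7 (adjusted p = 0.0388), all day 7 samples being above all samples of days 0 and 3. The Erg call was lost in 13 of 27 alternatives, and against the day 0 arrays of slide 2 the difference was 0.48 (adjusted p = 0.195). On slide 2 Erg read -0.85, -0.89, -1.05 and -1.49 at day 0 and -0.14, -0.59, -1.24 and -1.06 at day 14, with overlap. Sox17, a factor of arterial endothelium, had differences of 0.58 ± 0.27 at day 7 (adjusted p = 0.140) and 0.71 ± 0.22 at day 14 (adjusted p = 0.119). Its day 14 samples stood clear of day 0, and a second probe gave 0.57. Sox18 showed -0.20 ± 0.31 at day 7 (adjusted p = 0.681) and 0.25 ± 0.25 at day 14 (adjusted p = 0.605), with overlap at both days.

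Transport genes stood on both sides. Gpihbp1 carries lipoprotein lipase to the capillary surface, where it releases fatty acids from triglycerides. On slide 2 it read 4.51, 4.19, 4.13 and 4.64 at day 0 and 5.15, 4.71, 4.86 and 5.02 at day 14. On slide 1 it read 4.55 and 4.26 at day 0, 4.22, 3.88 and 3.78 at day 3 and 3.97, 4.25 and 4.08 at day 7. Days 3 and 7 lay below day 0 and day 14 lay above it, in each case without overlap within the slide. None of the differences from day 0 passed: -0.45 ± 0.18 at day 3 (limma, adjusted p = 0.136), -0.31 ± 0.18 at day 7 (adjusted p = 0.226) and 0.57 ± 0.14 at day 14 (adjusted p = 0.0783). The step from day 7 to day 14 did: Gpihbp1 was 0.88 ± 0.21 higher at day 14 (adjusted p = 0.0447), the only one of 35 members called in that comparison, beside 2.30% of all features (1.12% higher and 1.18% lower). That comparison crosses slides, and the call was lost without RNA sample 1 or 2 of day 7, without RNA sample 1, 2 or 3 of day 0 and without any 1 of the 4 day 14 RNA samples (adjusted p 0.0505 to 0.244). It was also lost with median scaling (0.0975), without the filter on dim probes (0.0639) and without the RNA sample block (0.110).

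Plvap forms the diaphragms of fenestrae and caveolae. It read 3.08 and 3.05 at day 0, 2.61, 2.17 and 2.81 at day 3 and 2.30, 2.25 and 2.26 at day 7 on slide 1, and 2.63, 2.54, 2.56 and 2.54 at day 0 and 2.34, 2.13, 2.11 and 2.23 at day 14 on slide 2. Every later sample lay below every day 0 sample of its slide. Plvap fell by 0.53 ± 0.14 at day 3 (limma, adjusted p = 0.0479) and by 0.79 ± 0.14 at day 7 (adjusted p = 0.00397), and its day 14 difference was -0.36 ± 0.12 (adjusted p = 0.127). Without the slide 1 day 0 arrays these were -0.03 (adjusted p = 0.914) at day 3 and -0.30 (adjusted p = 0.132) at day 7. The second Plvap probe gave -0.69, -0.99 and -0.53 within slides, the same direction at each day. Aqp1, a water channel of capillaries and red cells, and Cav1, the coat protein of caveolae, had no call. Their day 14 differences were 0.06 ± 0.16 (adjusted p = 0.865) and 0.35 ± 0.13 (adjusted p = 0.167).

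Of the 3 secreted proteins, Mmrn2 and Egfl7 moved and Vwf did not pass. Mmrn2 is an endothelial matrix glycoprotein that binds CLEC14A and CD93. On slide 2 it read 3.95, 4.01, 3.92 and 4.06 at day 0 and 4.64, 4.45, 4.38 and 4.47 at day 14, and on slide 1 it read 3.66 and 3.63 at day 0, 3.85, 4.10 and 3.90 at day 3 and 4.11, 4.37 and 4.07 at day 7. On both slides all later samples were above all day 0 samples. Mmrn2 rose by 0.54 ± 0.12 at day 7 (limma, adjusted p = 0.00734) and by 0.50 ± 0.09 at day 14 (adjusted p = 0.0446). It is the only member called higher at both days. The day 7 difference was 0.20 without the slide 1 day 0 arrays (adjusted p = 0.215) and 0.32 without a slide term (adjusted p = 0.0758). Its day 14 call was lost in 16 of 28 alternatives, with the direction unchanged in all 28. Egfl7, a matrix protein secreted by endothelial cells during vessel growth, read 5.96 and 6.21 at day 0, 5.97, 6.37 and 6.33 at day 3 and 6.81, 6.81 and 6.69 at day 7 on slide 1. All day 7 samples were above all samples of days 0 and 3, and Egfl7 rose by 0.67 ± 0.15 at day 7 (adjusted p = 0.00732), or by 0.44 against the day 0 arrays of slide 2 (adjusted p = 0.0402). On slide 2 it read 6.07, 6.54, 6.43 and 6.30 at day 0 and 6.69, 6.80, 6.58 and 6.86 at day 14, without overlap and with a difference of 0.40 ± 0.12 (adjusted p = 0.110). Vwf, the platelet-binding von Willebrand factor of larger vessels, read 3.85, 3.57, 3.64 and 3.91 at day 0 and 4.25, 3.74, 3.90 and 3.87 at day 14 on slide 2, and 3.88 and 3.59 at day 0, 3.63, 3.39 and 3.91 at day 3 and 3.76, 3.60 and 3.49 at day 7 on slide 1. Its samples overlapped at every day, and the day 14 difference was 0.20 ± 0.14 (adjusted p = 0.441).

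Signalling and surface genes closed the list. Nos3 encodes endothelial nitric oxide synthase, which relaxes vessels. It read 2.65 and 2.75 at day 0, 3.14, 3.26 and 2.76 at day 3 and 3.05, 3.49 and 3.04 at day 7 on slide 1, and 2.74, 2.82, 2.65 and 2.97 at day 0 and 3.27, 3.09, 3.09 and 3.13 at day 14 on slide 2. All later samples were above the day 0 samples of their slide. Nos3 rose by 0.48 ± 0.16 at day 7 (limma, adjusted p = 0.0439), and its day 14 difference was 0.35 ± 0.13 (adjusted p = 0.159). A second Nos3 probe, above background on all arrays, gave -0.32 at day 7 and 0.04 at day 14 within slides, so the probes disagree. The day 7 call was lost in 16 of 27 alternatives, and with the mean of both probes the difference was 0.08 (adjusted p = 0.747). Ly6c1, a surface protein of capillary endothelium and of monocytes, read 7.05 and 6.38 at day 0, 6.48, 6.24 and 6.47 at day 3 and 6.13, 6.03 and 6.06 at day 7 on slide 1, and 7.09, 6.38, 6.38 and 6.90 at day 0 and 6.78, 6.52, 6.76 and 6.67 at day 14 on slide 2. Ly6c1 fell by 0.62 ± 0.20 at day 7 (adjusted p = 0.0358), with all day 7 samples below day 0, and its second probe gave -0.87 within slide 1. The call was lost in 9 of 27 alternatives, and when RNA sample 1 of day 0 was left out the difference was -0.38 (adjusted p = 0.210). At day 14 its difference was -0.01 ± 0.16 (adjusted p = 0.987). Macrophage markers, a list that shares the myeloid lineage with monocytes, moved in the same direction at day 7: 5 of 10 fell, beside 8.14% of all features, among them the complement genes C1qa (-1.62 ± 0.36) and C1qb (-1.53 ± 0.36), and the part of such cells in the Ly6c1 difference was not tested. Rasip1, a regulator of vessel lumen formation, Ecscr and Tm4sf1 had no call, with day 14 differences of 0.34, 0.24 and 0.03.

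The day 7 calls in opposite directions were set beside the genes' promoter sequences. The 250 bases before the transcription start were taken from RefSeq promoter entries (GRCm38.p6), which were found for 19 of the 35 genes, with 25 entries in all. The ETS core searched was CGGAAG or AGGAAG on either strand, the kind of site that ERG and related factors bind. It was held by 14 of the 25 entries (56.0%), against 39.2% of 32851 entries of the same length. The core of the hypoxia response element (ACGTG or GCGTG, either strand) was held by 7 entries (28.0%) against 38.6%, a SOX core (ACAAT, either strand) by 7 (28.0%) against 27.7%, and a GATA core (AGATAA, either strand) by 1 (4.00%) against 10.0%. The sequences of Eng and Tie1, called lower at day 7, and of Egfl7 and Cd34, called higher, are shown because all 4 hold the ETS core while their calls differ in direction. Of these, the Tie1 call turned without the slide 1 day 0 arrays and the Cd34 call belongs to 1 probe. They run 5′ to 3′ in the direction of transcription and end at the base before the start, with ETS cores in capitals (CTTCCT or CTTCCG where the core lies on the other strand). Eng lies at chr2:32646345-32646594 on the plus strand, Tie1 at chr4:118489850-118490099 on the minus strand, Egfl7 (the first of 3 entries) at chr2:26580833-26581082 on the plus strand and Cd34 at chr1:194938571-194938820 on the plus strand.
Eng: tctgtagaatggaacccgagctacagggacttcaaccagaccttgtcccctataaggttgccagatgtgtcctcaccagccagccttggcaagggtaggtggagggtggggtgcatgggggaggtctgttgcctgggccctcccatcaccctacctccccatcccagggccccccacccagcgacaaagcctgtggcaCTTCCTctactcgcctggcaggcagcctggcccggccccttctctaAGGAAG
Tie1: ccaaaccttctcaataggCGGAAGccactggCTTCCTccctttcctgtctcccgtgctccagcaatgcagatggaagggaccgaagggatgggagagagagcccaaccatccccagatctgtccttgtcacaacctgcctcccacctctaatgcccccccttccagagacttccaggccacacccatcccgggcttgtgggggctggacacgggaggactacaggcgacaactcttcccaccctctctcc
Egfl7: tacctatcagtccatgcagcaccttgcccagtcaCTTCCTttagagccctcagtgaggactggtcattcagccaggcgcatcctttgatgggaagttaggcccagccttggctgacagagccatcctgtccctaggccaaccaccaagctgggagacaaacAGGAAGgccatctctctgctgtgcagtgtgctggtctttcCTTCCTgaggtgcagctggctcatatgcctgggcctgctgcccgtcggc
Cd34: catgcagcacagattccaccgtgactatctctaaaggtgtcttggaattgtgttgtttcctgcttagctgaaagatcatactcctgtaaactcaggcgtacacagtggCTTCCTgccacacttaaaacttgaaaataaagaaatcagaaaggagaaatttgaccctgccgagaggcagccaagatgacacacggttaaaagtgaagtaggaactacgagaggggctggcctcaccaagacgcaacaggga
Eng, Tie1, Egfl7 and Cd34 hold 2, 2, 3 and 1 such cores in these entries, and the other Egfl7 entries hold 1 and 0. The core nearest the start directly precedes it in Eng and begins 219 bases upstream of it in Tie1. A match of these letters describes the sequence and does not show a bound site.

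The 5 genes called at day 7 within slide 1 alone were also followed in samples that share no RNA or array with that comparison, by setting day 14 against day 0 RNA samples 3 and 4 on slide 2. The day 7 value of slide 1 and the day 14 value of slide 2 were 0.76 and 0.51 for Erg, 0.69 and 0.37 for Egfl7, and -0.80 and -0.34 for Plvap. They were -1.13 and -0.13 for Eng and -0.98 and -0.03 for Tie1, so both were close to 0 at day 14. The sign was the same for all 5 genes, beside 82.8% of the 2094 features called within slide 1 at day 7. The day 14 values carry no call of their own in this reduced set, in which 0 members and 0% of all features were called (limma). An unadjusted p under 0.05 was reached upward by 13 members and downward by 2. No share over all features was counted there, so these counts do not set the members apart from other features. Day 7 minus day 3, within slide 1, called 0 of 35 genes, beside 0.678% of all features, with an unadjusted p under 0.05 upward for 4, beside 7.22% of all features, and downward for 1, beside 4.64%. The day 7 samples lay wholly above day 3 for 5 genes (beside 11.2% of all features) and wholly below for 5 (beside 6.05%), Egfl7 and Erg among the former and Eng among the latter.

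Further genes of the endothelial program, taken from lists that were no part of the 35, gave few calls. Of 20 other pan-endothelial genes that passed the filter, 1 rose at day 14 (beside 0.294% of all features) and 0 fell, with a median of 0.25. That gene was Cyyr1 (0.58 ± 0.10, limma, adjusted p = 0.0284), which also rose at day 3 (0.51 ± 0.12, adjusted p = 0.0300). On slide 2 the day 14 samples lay wholly above day 0 for 9 of the 20, beside 10.0% of all features. They lay wholly below for 1, beside 4.10%. At day 7, 2 of the 20 rose, beside 15.6% of all features, and 2 fell, beside 8.14%, which are the shares behind every day 7 count of a list. Sparcl1, a matricellular protein, rose by 0.84 ± 0.18 and the adaptor She by 0.65 ± 0.17, while the matrix protein Tinagl1 fell (-1.55 ± 0.24) and so did Podxl, a sialomucin of the luminal surface (-0.81 ± 0.23). Of 21 endothelial transcription factors outside the list, 2 rose and 0 fell at day 7: Fli1, the ETS factor closest to ERG (0.92 ± 0.17, adjusted p = 0.00429), and Nr2f2, a factor of venous identity (0.80 ± 0.15, adjusted p = 0.00384). The median of the 21 was 0.39 at day 7 and 0.24 at day 14, when none was called. On slide 2 the day 14 samples lay wholly above day 0 for 3 of them and wholly below for 0. Fli1 and Erg thus were both called higher at day 7, though the Erg call was lost in 13 alternatives. All day 7 values of these lists rest on the day 0 arrays of slide 1, as for the 35 genes.

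Ligands of the endothelial receptors came next. Of 16 vascular ligands that passed the filter, 4 rose and 2 fell at day 7, again beside 15.6% and 8.14% of all features. Angpt1, the agonist of TIE2, rose by 1.07 ± 0.21 (limma, adjusted p = 0.00497) and Angpt2, its context-dependent antagonist, by 0.95 ± 0.25 (adjusted p = 0.0152). Vegfc, a ligand of VEGFR3 and VEGFR2, rose by 0.43 ± 0.13 and the chemokine Cxcl12 by 0.46 ± 0.15. Tgfb1, the founding ligand of the family that endoglin serves, differed by -1.62 ± 0.32 (adjusted p = 0.00485) and Vegfb by -0.53 ± 0.18 (adjusted p = 0.0453), both lower. Eng and Tgfb1 thus were both called lower at day 7, while Acvrl1, the gene of ALK1, had no call (-0.19 ± 0.11, limma, adjusted p = 0.240). A link between these genes was not tested. At day 14, 0 of 16 ligands were called, beside 0.402% of all features (limma), with a median of 0.08. An unadjusted p under 0.05 was reached upward by 4 and downward by 1. No share over all features was counted for it, so these counts do not set the ligands apart. The day 14 samples lay wholly above day 0 for 1 ligand, beside 10.0% of all features, and wholly below for 1, beside 4.10%. Of 20 Notch and tip cell genes, 2 rose and 1 fell at day 7, the rises below the share of all features: the Notch target Hes1 (1.06 ± 0.24), the VEGF co-receptor Nrp2 (0.65 ± 0.16) and, lower, the endothelial receptor Notch4 (-0.66 ± 0.14).

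Genes of single vessel segments were few. At day 7, when 15.6% of all features were called higher and 8.14% lower, 2 of 11 arterial genes fell and 0 rose, the gap junction genes Gja4 (-0.63 ± 0.15, limma, adjusted p = 0.0110) and Gja5 (-0.84 ± 0.23, adjusted p = 0.0174). Of 9 capillary genes, 2 rose and 1 fell: the fatty acid transporter Cd36 (0.65 ± 0.16), Cxcl12 and, lower, the carbonic anhydrase Car4 (-0.48 ± 0.13). Of 9 venous genes, 1 rose (Nr2f2) and 1 fell (Lrg1, -0.94 ± 0.26). At day 14 none of these segment genes was called, beside 0.402% of all features (limma), and their medians were 0.13, 0.13 and 0.20. On slide 2 the day 14 samples lay wholly above day 0 for 1 arterial, 1 capillary and 2 venous genes, beside 10.0% of all features. Wholly below lay 1 arterial, 0 capillary and 0 venous genes, beside 4.10%. An unadjusted p under 0.05 was reached upward by 8 segment genes and downward by 2. No share over all features was counted for it, so these 2 counts do not set the segment genes apart. Kdr belongs to the capillary list and Vwf to the venous list as well.

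Markers of other cells moved at day 14 beside the endothelial genes. Of 9 red blood cell genes, 6 rose, beside 0.294% of all features, and 0 fell. On slide 2 the day 14 samples stood wholly above day 0 for all 9, beside 10.0% of all features. Hbb-bt, a beta globin, rose by 1.83 ± 0.24 (limma, adjusted p = 0.0105), Hba-a1, an alpha globin, by 1.74 ± 0.24 (adjusted p = 0.0105) and Alas2, the heme synthesis enzyme of red cells, by 1.73 ± 0.25 (adjusted p = 0.0122). Globin paralogues are near-identical, so their probes may share targets. The summed linear level of the 9 genes, in units of the array's 75th percentile, was 811 to 1205 at day 0 on slide 2 and 2222 to 3753 at day 14. The same sum over the 35 endothelial genes was 488 to 579 and 599 to 667, again without overlap, and over 13 muscle fibre genes it was 9927 to 11178 and 10078 to 11408. Of 15 pericyte and smooth muscle genes, 1 rose: Higd1b, a pericyte marker (0.81 ± 0.11, adjusted p = 0.0105), with a list median of 0.24. Pericyte and smooth muscle sums were 194 to 219 at day 0 and 203 to 227 at day 14. Each sum leans on the brightest probes of its list, so it compares samples within a list and not lists with each other. Of 12 fibroblast genes, 2 fell, beside 0.108% of all features: Dpt (-0.60 ± 0.11) and Fmod (-2.07 ± 0.39). Red blood cells carry Aqp1, and stromal cells carry Cd34, Cav1 and Eng, besides endothelium. The part of these cells in the day 14 differences was not tested.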

How the data were processed

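RNA of mouse soleus was measured on Agilent 1-colour arrays, 16 arrays from 14 RNA samples on 2 slides. The deposited scanner files hold, per the file headers, spot intensity from Agilent Feature Extraction 11.0.1.1, background-subtracted and not scaled between arrays. Per the labels' protocols, RNA came from RNeasy Mini kits and was labelled with a Low Input Quick Amp kit. The deposited series table, also an intensity, served as an alternative.

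The deposited intensity was put on the log2 scale and reduced by the array's 75th percentile. Spots marked as outliers were left out (99 to 179 per array) and no spot was saturated. Of 55681 probes, 37 lacked a value on some array, 27656 (49.7%) were named through RefSeq transcripts, and 29459 were kept as well above background on at least 3 arrays. The brightest probe per gene or transcript left 22126 features. For arrays, their number limits the precision.

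The model, fitted in limma 3.58.1 (R 4.3.3, statmod 1.5.0) and tested 2-sided, held day and slide as fixed terms and a random block for the RNA sample (array correlation 0.448, 11 residual degrees of freedom), and Benjamini-Hochberg adjustment over all features. Repeat arrays of 1 RNA sample stayed separate arrays in the model, linked by this block, and the sample numbers given are of RNA samples. The code was tested on simulated data. Values in every sample are given for members called in any comparison, the 5 members with the smallest p and no overlap on slide 2, and Pecam1, Cdh5, Kdr, Flt1, Tek and Vwf. From other lists, members called with the smallest p are named. Members, roles and lists were chosen with earlier results of these data known. Alternatives changed the signal and background correction (normexp on the median spot brightness), scaling, filter, probe choice, slide, block and samples. Figures were made with Python 3.11.15 and Matplotlib 3.10.9.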

Additional observations from a re-analysis of the deposited data

Results flagged for a closer look

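Within slide 2, 5 of 70 groups of 4 samples held 1 endothelial value far from the other 3, where chance alone marks about 1 in 20 groups. Pecam1 was low in day 0 RNA sample 3, at 0.55 against 0.67 to 0.69. Ramp2 was high in day 0 RNA sample 1, at 4.29 against 4.10 to 4.13, still below every day 14 sample. Robo4 was high in day 14 RNA sample 1, at 4.33 against 4.06 to 4.08. S1pr1 was low in day 14 RNA sample 4, at 2.37 against 2.87 to 2.95, and this sample alone overlapped with day 0. Tm4sf1 was high in day 14 RNA sample 1, at 3.75 against 3.64 to 3.66. The change of Gpihbp1 from day 0 differed between day 7 and day 14, by 0.88 (limma, adjusted p = 0.0447), in a comparison across slides.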

How the results depend on the processing

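Counts are of members called and medians are of log2 differences over the 35 genes. A percentage is the share of all features called in that setting. At day 3 (count 3, 6.09%, median 0.05) the count was 7 (15.8%) with normexp on the median spot brightness and 5 (7.44%) with quantile normalization. It was 0 (0.398%, median 0.16) with median scaling, 6 (7.83%) in the series table and 1 (1.09%) without the filter. Over probes above background on all arrays it was 7 (17.7%), without a slide term 0 (1.18%) and on slide 1 only 0 (0%). Without the slide 1 day 0 arrays it was 1 (9.36%), and Tie1 reversed to 0.18. At day 7 (count 13, 23.8%, median 0.22) the count was 5 (9.46%) on slide 1 only and 8 (17.5%) without the slide 1 day 0 arrays (median 0.055, Tie1 reversed to 0.18). The day 7 median was 0.14 with normexp, 0.081 with quantile normalization, 0.34 with median scaling, 0.079 with the percentile of detected probes, 0.050 in the series table, 0.080 with the mean of probes and 0.057 without a slide term. At day 14 (count 2, 0.402%, median 0.31) the count was 0 (0.108%, median 0.11) with normexp and 0 (0.122%, median 0.21) with median scaling. It was 7 (6 higher and 1 lower, 3.03%, median 0.20) in the series table, 0 (0.0460%) without the filter and 6 (2.82%) over probes above background on all arrays. Without a slide term it was 16 (14 higher and 2 lower, 14.0%). It was 0 (0.00452%) on slide 2 only, 0 (0%) there with day 0 RNA samples 3 and 4 and 1 (0.158%) without the slide 1 day 0 arrays. The median was 0.24 with quantile normalization and 0.24 with the percentile of detected probes. For day 7 minus day 3 (count 0, 0.678%, median 0.063) the count was 3 (3.32%) with normexp and 1 (2.95%, median 0.14) over probes above background on all arrays. The median was -0.037 with the percentile of detected probes and -0.022 in the series table. For day 14 minus day 7 (count 1, 2.30%, median 0.11) the count was 9 (18.9%, median 0.0069) with normexp and 3 (2.61%) with quantile normalization. It was 3 (3.38%) with the percentile of detected probes, 4 (3.56%) in the series table and 0 (0.771%) without the filter. Over probes above background on all arrays it was 5 (11.2%) and without a slide term 6 (11.7%). It was 10 (18.9%) without the slide 1 day 0 arrays and 0 (0.375%) without the RNA sample block. The median was -0.12 with median scaling. The cause of these shifts was not tested. Normexp and the use of day 0 RNA samples 3 and 4 were chosen after seeing the data.

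Without 1 RNA sample at a time, counts ranged over 0 to 4 (day 3), 0 to 14 (day 7), 0 to 3 (day 14), 0 to 0 (day 7 minus day 3) and 0 to 4 (day 14 minus day 7), and medians over 0.034 to 0.065, 0.14 to 0.22, 0.21 to 0.34, 0.018 to 0.15 and 0.030 to 0.18. In the same order, the share of all features called ranged over 0.0452 to 7.73%, 0.466 to 26.2%, 0.0136 to 0.990%, 0.127 to 1.22% and 0.0181 to 5.46%. Without day 0 RNA sample 1 or 2 the array correlation of the full fit was used, as 1 RNA sample was left on both slides. Median scaling moved the median of all features from 0.06 to 0.17 at day 3, from 0.09 to 0.22 at day 7, from 0.06 to -0.044 at day 14 and from -0.036 to -0.27 for day 14 minus day 7. Relative to all features, the day 14 median of the members was 0.26 in the main setting and 0.075 to 0.28 in the alternatives.

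Samples that share a number were not paired: same-number correlations were 0.030 to 0.12 on slide 2, where each day 0 sample correlated best with its own number (a hint from the data), and -0.10 to 0.13 on slide 1. With the number as a replicate block the counts were 3, 12, 1, 0 and 3, beside 6.05%, 22.7%, 0.0949%, 0.199% and 5.17% of all features.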
